A study of Mus musculus with 6 samples.

Results

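Rab GTPase genes were examined in cultured mouse NSP cells, an abbreviation commonly used for neural stem and progenitor cells, after lentiviral knockdown of REST. A gene was a member when its symbol was Rab followed by a number, with or without further letters or digits but no suffix of a partner protein. Partner proteins such as Rab11fip or Rab3gap genes were not members. The rule gave 59 members among the 18194 genes with a probe set that is annotated to 1 gene. They comprised 4 Rab3 genes and 55 others. Each gene was read by its brightest probe set; a probe set is a handful of short probes against one stretch of transcript. The cells came from brains of E12.5 embryos. They were infected overnight with lentivirus carrying either a control shRNA (CTL) or a shRNA against REST, and RNA was taken 6 days later, with 3 arrays per group. No label states the shRNA sequences, the mouse strain or whether arrays of one group came from separate cultures. P-values therefore reflect the scatter among these 6 samples alone, and that scatter may be technical.

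Rab proteins are small GTPases that mark the membranes of a cell and steer vesicles between them. In the GTP-bound form they sit on a membrane and recruit effectors such as motors, tethers and fusion factors. Exchange factors (GEFs) load them with GTP, GTPase-activating proteins (GAPs) switch them off, and escort proteins, a prenyl transferase and GDI proteins add and manage the lipid anchor that holds them on the membrane. Rab3 proteins are best known in neurons and endocrine cells, where they sit on synaptic and dense core vesicles and act in regulated exocytosis. REST represses many neuronal genes through a DNA element called RE1, and the comparison asks which Rab transcripts differ once REST is targeted.

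The stretches upstream of the transcription start are shown for 3 members that the results below turn on: Rab3c and Rab15, whose signals were higher in each REST shRNA array than in any control array, and Rab3a, the main Rab3 of brain synapses. The sequences are the 250 bases before the start in RefSeq, assembly GRCm38.p6, each read 5′ to 3′ on the strand of the gene. They lie at chr13:110280207-110280456 on the minus strand for Rab3c, at chr8:70754453-70754702 on the plus strand for Rab3a and at chr12:76822525-76822774 on the minus strand for Rab15. Capitals mark a GC box, GGGCGG, or the right part of the RE1 element, GGACAG, on either strand.
Rab3c: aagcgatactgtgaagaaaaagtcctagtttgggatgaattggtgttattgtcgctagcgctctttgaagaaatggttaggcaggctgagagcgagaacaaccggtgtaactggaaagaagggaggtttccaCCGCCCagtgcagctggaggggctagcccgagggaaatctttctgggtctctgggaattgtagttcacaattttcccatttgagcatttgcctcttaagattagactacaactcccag
Rab3a: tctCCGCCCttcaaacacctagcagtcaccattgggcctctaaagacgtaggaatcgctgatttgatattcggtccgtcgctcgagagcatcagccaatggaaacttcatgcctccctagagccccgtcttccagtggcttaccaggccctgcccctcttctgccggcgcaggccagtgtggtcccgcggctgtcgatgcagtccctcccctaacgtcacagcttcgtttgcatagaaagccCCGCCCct
Rab15: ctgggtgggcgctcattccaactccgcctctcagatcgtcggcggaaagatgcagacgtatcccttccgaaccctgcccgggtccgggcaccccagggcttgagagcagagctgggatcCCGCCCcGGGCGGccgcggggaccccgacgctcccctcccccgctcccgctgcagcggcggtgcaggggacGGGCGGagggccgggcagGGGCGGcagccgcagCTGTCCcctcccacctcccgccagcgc
The Rab3c stretch held 1 GC box, the Rab3a stretch 2 and the Rab15 stretch 4. The right part of RE1 stood once in the Rab15 stretch, on the opposite strand, and its letters were not in the Rab3c and Rab3a stretches. Rab3a and Rab15 have further RefSeq starts, whose stretches are not shown. Over 48 members with a RefSeq start, with 60 windows in all, a GC box stood in 66.7% of the 250-base windows, against 32.7% of the 32851 windows of all genes. The right part of RE1 stood in 9 of the 60 Rab windows and in 18.7% of all windows. The left part, TTCAGCACC, stood in 0 of the 60 Rab windows and in 0.301% of all windows. Both parts, set 2 bases apart, with up to 2 mismatches in their 15 letters, were found in 0 Rab windows and in 0.107% of all windows. Each motif was searched on both strands, and no marked motifs overlap in the stretches shown. RE1 elements often lie outside such a window, so a window without the letters says only that they are not there.

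The array's values are log2 signals that share nearly one distribution across arrays, so each difference is relative to the other genes of an array. The targeted transcript, Rest, read lower with REST shRNA in all 4 of its probe sets, at 57.3% to 71.5% of control, and the groups did not overlap in any of them. All 12 neuronal and all 10 progenitor markers listed for this work had a mean above 3.24, the highest signal of 27 bacterial control probe sets. So did all 6 astrocyte markers and 6 of 7 oligodendrocyte lineage markers. Of the microglial markers 3 of 6 exceeded this level, and of the mesenchymal and vascular markers 5 of 8. Over all genes 13832 of 18194 exceeded it, so these counts alone do not tell which cell types were present. Neuronal markers read higher with REST shRNA for 10 of 12 genes, with a median log2 difference of 0.89. The list's summed log2 signal was 88.6 to 93.4 in the control arrays and 98.9 to 104.4 in the REST shRNA arrays. Progenitor markers were negative for 9 of 10 genes, with a median of -0.25, pair means of -0.07, -0.37 and -0.16, and sums of 104.8 to 105.9 in the control and 101.9 to 105.2 in the REST shRNA arrays. All 6 astrocyte markers were negative, with a median of -0.36. Some of the neuronal markers, Snap25 and Stmn2 among them, are themselves known REST targets. REST shRNA array 2 stood apart in its astrocyte markers, whose mean differed by -1.70 from control array 2, against 0.06 and 0.22 in pairs 1 and 3. The summed log2 signal of the astrocyte list was 49.7 to 52.7 in the control arrays and 39.5 to 53.1 in the REST shRNA arrays. In a bulk sample, fewer cells of a type and less RNA per cell cannot be told apart.

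As a family, the Rab genes read nearly level between the groups. The median log2 difference, REST shRNA minus control, was 0.05 over the 59 members and 0.04 over all genes, with 37 members positive and 22 negative. In 55 members the difference was smaller than 0.5 in either direction. No member passed the adjusted threshold of 0.05 in limma, and neither did any other gene (0% of all genes), with an adjusted p of 1.00 for each member. At an unadjusted p under 0.05, 3 members read higher (5.08%, against 1.78% of all genes) and 1 read lower (1.69%, against 1.07%). The members were Rab3c, Rab15 and Rab26 on the higher side and Rab40b on the lower side. The signals of the groups did not overlap for 3 members on the higher side (5.08%, against 4.91% of all genes) and 3 on the lower side (5.08%, against 2.65%), the latter being Rab6a, Rab14 and Rab40b. The higher count is therefore near the background by this measure. The split by direction moved with the scaling: with each array centred on its median, 2 members read higher and 3 lower at an unadjusted p under 0.05, against 219 (1.2%) higher and 292 (1.6%) lower over all genes, where the deposited scale gave 323 and 195. After quantile normalization the counts were 3 and 1 for the members, against 269 (1.48%) and 266 (1.46%) over all genes. In the fit blocked on replicate number, 3 members read higher (2.24% of all genes did) and 1 lower (1.42%), and the members were then Rab3c, Rab15 and Rab20, and Rab30.

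**Figure D1:**
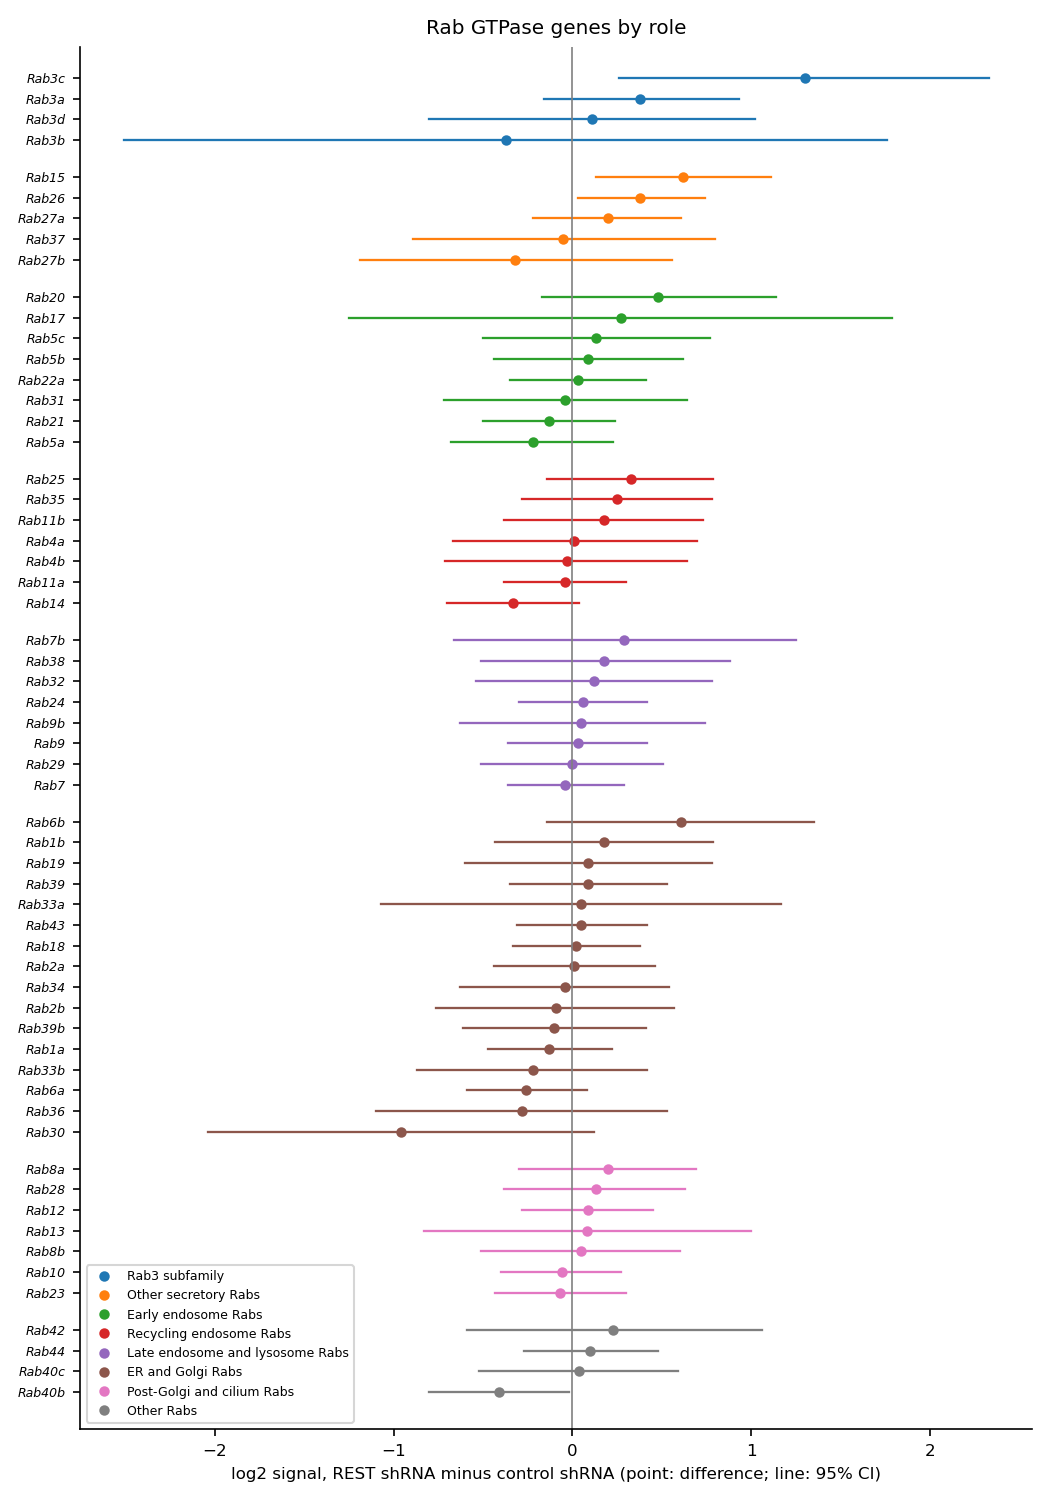
Difference between REST shRNA and control shRNA in log2 signal for each of the 59 Rab genes, grouped by the membrane or route each is best known for; points are limma estimates from 3 arrays per group and lines are 95% confidence intervals. Rab3c has the largest positive estimate, at 1.30, and Rab30 the largest negative, at -0.96, while most intervals span 0.

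The Rab3 genes did not behave as 1 group. Rab3c carried the largest positive difference of the family. For Rab3a, Rab3b and Rab3d the groups overlapped, and Rab3b and Rab3d varied so widely between arrays that no direction could be read. Rab3c, a Rab3 of synaptic and secretory vesicles, read 5.44, 5.79 and 5.53 in control arrays 1, 2 and 3 and 6.37, 7.93 and 6.34 in REST shRNA arrays 1, 2 and 3, on the log2 scale. Each REST shRNA array lay above each control array, with array 2 far above the other 2. The difference was 1.30 (95% CI 0.26 to 2.33), which is 2.45-fold. The limma p was 0.0213 unadjusted and 1.00 adjusted over all genes, and blocking on replicate number gave an unadjusted p of 0.00558. Without REST shRNA array 2 the difference was 0.77, with an unadjusted p of 0.00376. The unadjusted p was 0.0629 without control array 1 and 0.0574 without control array 3.

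Rab3c has 5 probe sets, and all 5 read higher with REST shRNA, by 0.27 to 1.44. In 4 of them the groups did not overlap. These 4 include the probe set with the smallest difference, which lay below the bacterial controls, so its difference could not be read. Probe sets of a gene share the same RNA and are no replicates of one another.

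**Figure D2:**
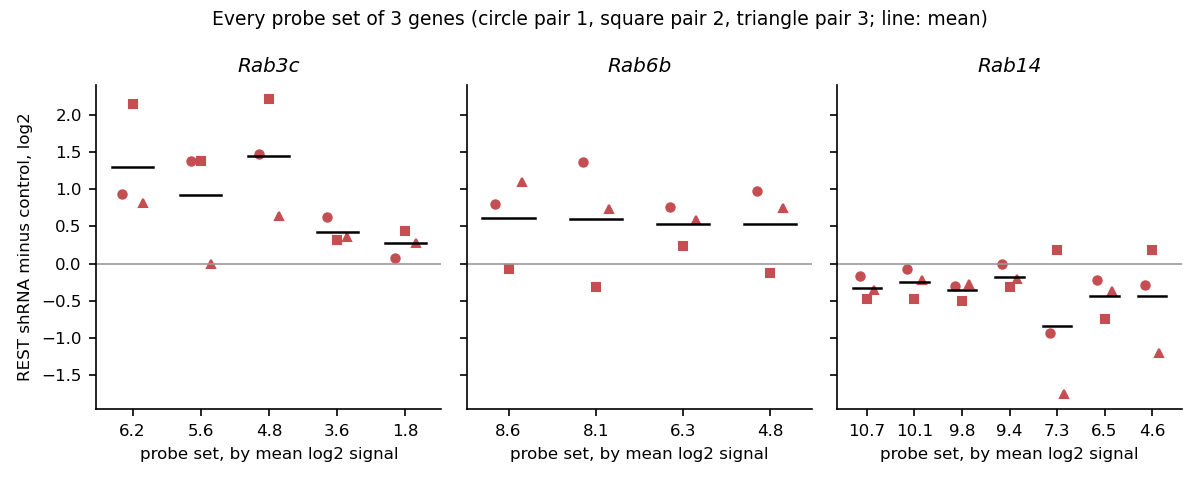
Log2 difference between REST shRNA and control arrays of the same number for every probe set of Rab3c, Rab6b and Rab14, ordered along the horizontal axis by mean signal; symbols are the 3 pairs of arrays and lines their means. The means of all 5 Rab3c and all 4 Rab6b probe sets lie above 0, and those of all 7 Rab14 probe sets below it.

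Rab3a, the most studied Rab of synaptic vesicles, read 7.10, 7.29 and 7.16 in the control arrays and 7.39, 7.27 and 8.03 in the REST shRNA arrays. REST shRNA arrays 1 and 3 lay above all controls, and array 2 lay among them, so the groups overlapped. The difference was 0.38 ± 0.23 (SE, log2), with a 95% CI of -0.16 to 0.93. Its other probe set differed by 0.33.

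Rab3b, which serves secretion in some endocrine and neuronal cells, read 8.31, 8.15 and 7.07 in the control arrays. In the REST shRNA arrays it read 5.62, 9.35 and 7.43, a range of 3.73 log2 units, with both the lowest and the highest of the 6 values in this group. Its spread within groups was at the 99.0th percentile of all genes. The difference of -0.37 ± 0.89 (SE) was smaller than that spread, and without REST shRNA array 1 it turned to 0.55. It has 1 probe set. Acta2, an actin of smooth muscle and a listed mesenchymal marker, also varied strongly within groups, at 8.49, 8.40 and 4.07 in the control arrays and 3.55, 8.0 and 3.71 in the REST shRNA arrays. Like Rab3b it was higher in control arrays 1 and 2 and in REST shRNA array 2 than in the other 3 arrays. The other listed mesenchymal markers did not share this pattern, and Pdgfrb was higher in the other 3 arrays instead. Nes, a listed progenitor marker, did share it, at 8.39, 8.57 and 6.87 in the control and 7.95, 9.99 and 6.81 in the REST shRNA arrays. Among the other progenitor markers Fabp7 shared it, Pax6 was higher in the other 3 arrays, and the rest did neither. Markers of other lineages also went both ways. Olig1 shared the pattern, while Dcx, Stmn2, Gfap, Sox10, Mbp and Mobp were higher in the other 3 arrays. What part any of this has in the Rab3b signal was not tested.

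Rab3d, a Rab of secretory granules in exocrine and other non-neuronal cells, read 6.22, 6.26 and 5.63 in the control arrays and 6.50, 5.32 and 6.63 in the REST shRNA arrays. The groups overlapped, with REST shRNA array 2 the lowest of all 6. The difference was 0.11 ± 0.38 (SE), with a 95% CI of -0.80 to 1.02 and pair differences of 0.29, -0.95 and 0.99. It turned negative when 1 array was left out, to -0.09 for control array 3 and to -0.07 and -0.13 for REST shRNA arrays 1 and 3, and 1 of its 4 probe sets had the opposite sign.

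**Figure D3:**
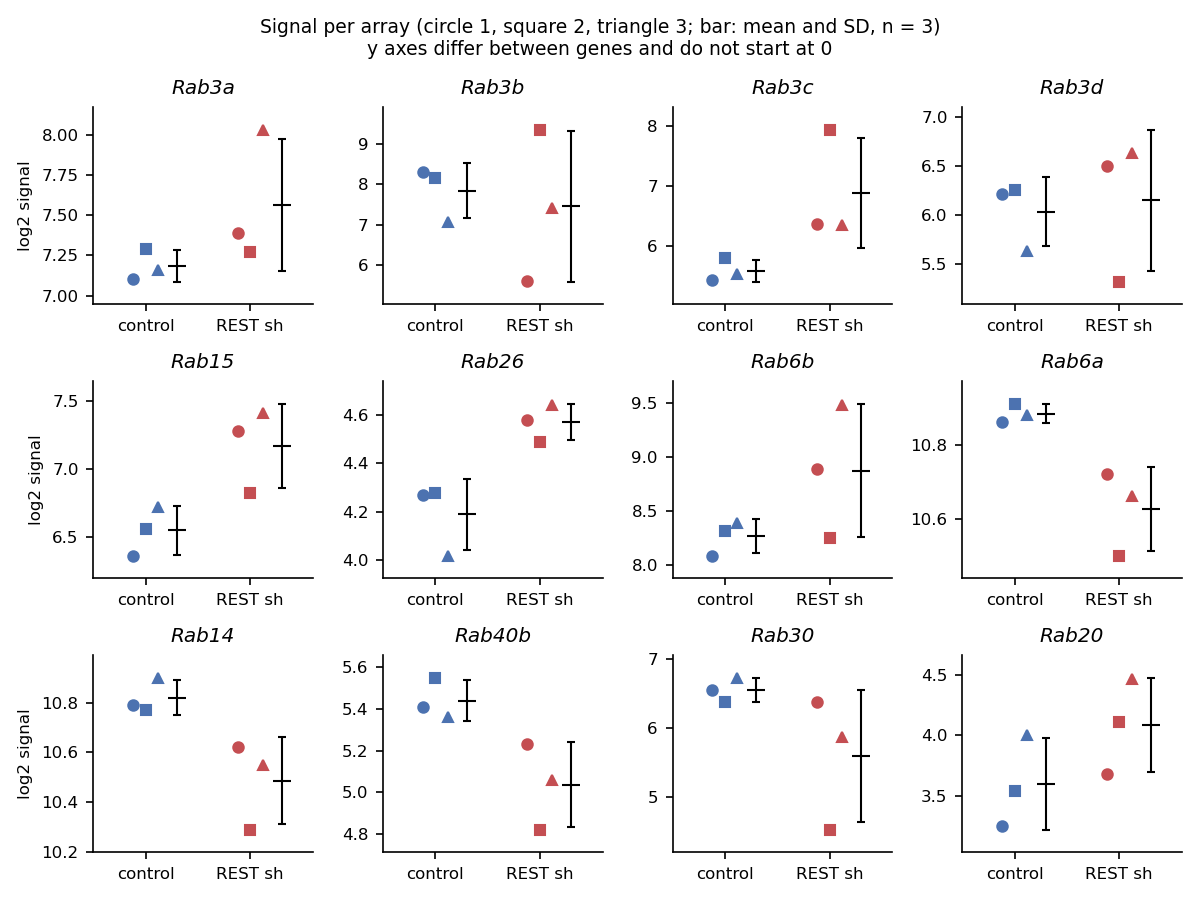
Log2 signal in each of the 6 arrays for the 4 Rab3 genes and 8 other Rab genes, with the mean and SD of 3 arrays per group beside the points; symbols give the replicate number and vertical axes differ between panels. Rab3c, Rab15 and Rab26 are higher in every REST shRNA array than in any control array, and Rab6a, Rab14 and Rab40b are lower.

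Set against the other Rab genes, the mean difference of the Rab3 genes was 0.35 and that of the other 55 was 0.03, a contrast of 0.32. The mean Rab3 signal minus the mean of the other Rab genes was -0.60, -0.53 and -0.94 in control arrays 1, 2 and 3. It was -0.97, 0.25 and -0.39 in REST shRNA arrays 1, 2 and 3. REST shRNA array 1 thus gave the lowest value of all and array 2 the highest, and the groups overlapped. By pair, the contrast was -0.38, 0.78 and 0.55. It was 0.00 without Rab3c and 0.56 without Rab3b. It was 0.01 without REST shRNA array 2, 0.62 without REST shRNA array 1 and 0.19 without control array 3, and 0.19 when all probe sets of a gene were averaged. The contrast thus rested on Rab3c and on single arrays.

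The Rabs of regulated secretion outside Rab3, as grouped here, held both other members that read higher at an unadjusted p under 0.05. These were 2 of its 5 genes, against 1.78% of all genes. The groups were formed with earlier results of these data known, and Rab15 could also be placed with the endosome Rabs. The count is therefore a description, and no enrichment of this group was taken from it. Rab15, a neuron-enriched Rab of endosomes that has also been linked to secretion, read 6.36, 6.56 and 6.72 in the control arrays and 7.28, 6.82 and 7.41 in the REST shRNA arrays. The groups did not overlap, although REST shRNA array 2 lay close to control array 3. The difference was 0.62 (95% CI 0.13 to 1.11), or 1.54-fold, with a limma p of 0.0204 unadjusted and 1.00 adjusted. The unadjusted p was 0.0758 and 0.0530 without control arrays 1 and 2, and 0.0617 and 0.0639 without REST shRNA arrays 1 and 3.

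Rab26, which sits on secretory granules and has been linked to the turnover of synaptic vesicles, read 4.27, 4.28 and 4.02 in the control arrays. It read 4.58, 4.49 and 4.64 in the REST shRNA arrays, all above the controls, in a dim part of the scale. The difference was 0.38 (95% CI 0.03 to 0.74), with an unadjusted limma p of 0.0373, an adjusted p of 1.00 and an unadjusted p of 0.0813 when blocked on replicate number. Leaving out any array other than REST shRNA array 2 also took its unadjusted p past 0.05, to between 0.0588 and 0.108. Rab15 and Rab26 have 1 probe set each, so neither has a second reading.

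The other 3 Rabs of this group act in the secretion of granules, among them those of immune, endocrine and pigment cells. Rab27a differed by 0.20 ± 0.17 (SE), Rab37 by -0.05 ± 0.35 and Rab27b by -0.32 ± 0.37. All 3 lay close to the bacterial controls, with group means from 3.42 to 4.03. Rab27b was higher than the controls in REST shRNA array 1, at 4.57, and lower in arrays 2 and 3, at 3.15 and 3.41. It has 4 probe sets, of which 1 had the opposite sign, and with the most variable probe set its difference was 0.10.

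Among the 16 Rabs of the endoplasmic reticulum and Golgi, 8 were positive and 8 negative, with a median of -0.02. Rab6b, the neuron-enriched form of Rab6 that acts in retrograde transport, read 8.09, 8.32 and 8.39 in the control arrays and 8.89, 8.25 and 9.48 in the REST shRNA arrays. REST shRNA arrays 1 and 3 lay above the controls and array 2 among them. The difference was 0.61 ± 0.31 (SE), and the 4 probe sets gave 0.53 to 0.61. Without REST shRNA array 2 it was 0.92, with an unadjusted p of 0.00602.

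Rab6a, the ubiquitous form, read 10.86, 10.91 and 10.88 in the control arrays and 10.72, 10.50 and 10.66 in the REST shRNA arrays. The groups did not overlap, but the difference was small, at -0.26 ± 0.14 (SE), and did not pass an unadjusted p of 0.05. Rab6a was lower in all 3 of its probe sets, by 0.13 to 0.26 in size.

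Rab30, a Golgi Rab, had the largest negative difference of the family. It read 6.55, 6.37 and 6.72 in the control arrays and 6.37, 4.52 and 5.87 in the REST shRNA arrays. The value in REST shRNA array 1 equalled the lowest control to 2 decimals, and array 2 lay far below the rest. The unadjusted limma p was 0.0733, and 0.0282 when blocked on replicate number, with an adjusted p of 1.00 in both. It was also under 0.05 with each array centred on its median, at 0.0492, and without REST shRNA array 1, at 0.0186. The difference of -0.96 ± 0.45 (SE) shrank to -0.43 without REST shRNA array 2, and the second probe set differed by only -0.23. Rab33a and Rab36 showed the same kind of spread. Rab33a, a Golgi Rab of neurons and immune cells, read 8.0, 7.41 and 9.37 in the REST shRNA arrays against 8.14 to 8.31 in the controls. Rab36, another Golgi Rab, with the opposite sign in 1 of 3 probe sets, differed by -0.28 ± 0.34 (SE) and by 0.11 without REST shRNA array 2.

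The Rab genes of the early secretory route that nearly every cell uses had small differences with intervals of unequal width. Rab1a, which acts between endoplasmic reticulum and Golgi, differed by -0.13 (95% CI -0.47 to 0.22). Rab2a, which acts at the same step, differed by 0.01 (-0.44 to 0.46), with all 7 probe sets between 0.01 and 0.20. Their relatives Rab1b and Rab2b had wider intervals, with differences of 0.18 (-0.43 to 0.79) and -0.09 (-0.76 to 0.57), and 1 of 5 Rab2b probe sets had the opposite sign. Rab18, found on lipid droplets and the endoplasmic reticulum, differed by 0.02 (-0.33 to 0.38).

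Recycling endosome Rabs had 4 positive and 3 negative members. Rab14, which works between the Golgi and endosomes, was the one whose groups did not overlap, at 10.79, 10.77 and 10.90 in the control arrays and 10.62, 10.29 and 10.55 in the REST shRNA arrays. All REST shRNA arrays lay below all controls, by a small margin for array 1. The difference was -0.33 ± 0.15 (SE), which is 79.5% of control, and the unadjusted limma p of 0.0701 missed 0.05. It was 0.0475 with each array centred on its median and 0.0244 when all probe sets of a gene were averaged, with an adjusted p of 0.999 and 1.00. All 7 probe sets of Rab14 read lower, by 0.18 to 0.84 in size, and 5 of them did not overlap. Rab11a and Rab11b, the main Rabs of the recycling endosome, differed by -0.04 ± 0.14 and 0.18 ± 0.23 (SE). Rab25, an epithelial relative of Rab11, differed by 0.33 ± 0.19 close to the bacterial controls.

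Over all 59 members, 18 have 3 or more probe sets. In 6 of these genes every probe set was positive, in 4 every probe set was negative, and in the other 8 the signs were mixed. In 10 of the 38 genes with more than 1 probe set, some probe set had the sign opposite to that of the brightest.

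Early endosome Rabs held 5 positive and 3 negative members and none whose groups did not overlap. Rab5a, Rab5b and Rab5c, which drive fusion of early endosomes, differed by -0.22 ± 0.19, 0.09 ± 0.22 and 0.13 ± 0.27 (SE). Rab20, an endosome and phagosome Rab, read 3.25, 3.54 and 4.0 in the control arrays and 3.68, 4.11 and 4.46 in the REST shRNA arrays. Each REST shRNA array lay above the control array of its own number while the groups overlapped. Its difference of 0.48 ± 0.27 (SE) had an unadjusted limma p of 0.125, and of 0.0300 when blocked on replicate number. Rab20 has 1 probe set, whose signals lay close to the bacterial controls. Rab17, an epithelial Rab, varied from 3.89 to 6.34 among the REST shRNA arrays and differed by 0.27 ± 0.64.

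Late endosome and lysosome Rabs had a median difference of 0.05 over 8 members, and none lay outside -0.04 to 0.29. Rab7, the principal Rab of late endosomes and lysosomes, read 11.49, 11.48 and 11.35 in the control arrays and 11.44, 11.32 and 11.45 in the REST shRNA arrays. These values overlapped, with a difference of -0.04 (95% CI -0.36 to 0.29). Rab9, which returns receptors from endosomes to the Golgi, differed by 0.03 ± 0.17 (SE). Rab32 and Rab38, relatives that act in lysosome-related organelles, differed by 0.12 ± 0.28 and 0.18 ± 0.29.

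The Rabs of post-Golgi transport and cilia had differences from -0.07 to 0.20. Rab8a and Rab8b, which carry cargo to the plasma membrane and the cilium, differed by 0.20 ± 0.21 and 0.05 ± 0.23 (SE). Rab10, of basolateral and axonal membrane delivery, differed by -0.06 (95% CI -0.40 to 0.27), and Rab23, a regulator of Hedgehog signalling, by -0.07 (-0.43 to 0.30). Rab13, a Rab of cell junctions, read 7.90 in REST shRNA array 2 and 9.35 and 9.24 in arrays 1 and 3, on both sides of the controls at 8.66 to 8.81.

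Of the remaining 4 members, Rab40b, which carries a SOCS box and joins a ubiquitin ligase, read 5.41, 5.55 and 5.36 in the control arrays and 5.23, 4.82 and 5.06 in the REST shRNA arrays. All REST shRNA arrays lay below the controls. The difference was -0.41 (95% CI -0.80 to -0.02), with a limma p of 0.0430 unadjusted, 1.00 adjusted and 0.0814 unadjusted when blocked on replicate number. Its second probe set differed by -0.26 with overlapping groups. Leaving out REST shRNA array 1 gave an unadjusted p of 0.0296, and leaving out any other array took it past 0.05, to between 0.0604 and 0.129. Rab40c, its relative, differed by 0.04 ± 0.23 (SE).

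For 56 members the mean exceeded the highest bacterial control signal. The exceptions were Rab9b, Rab39 and Rab44, for which a difference could not be read. The brightest probe sets were those of Rab1a, Rab7, Rab31, Rab2a and Rab10, with control means from 11.18 to 11.60. Of these, Rab31, a Rab of early endosomes and the Golgi, differed by -0.04 ± 0.29 (SE). Signals of different probe sets depend on the probes as well as on the transcript, so no order of transcript levels was taken from them.

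REST shRNA array 2 set many of the extremes. It held the lowest of the 6 values in 25 members (42.4%, against 27.5% of all genes) and the highest in 13 (22.0%, against 24.7%). REST shRNA array 3 held the highest value in 19 members (32.2%, against 26.4% of all genes), and control array 3 the lowest in 18 (30.5%, against 21.8%). The mean difference over the 59 members was 0.05, -0.13 and 0.25 in pairs 1, 2 and 3, where all genes gave 0.02, -0.03 and 0.12. Without REST shRNA array 2, 8 members read higher at an unadjusted p under 0.05 (13.6%, against 4.22% of all genes) and 0 read lower (against 1.63%). These 8 were Rab3c, Rab6b, Rab7b, Rab13, Rab15, Rab25, Rab26 and Rab42. Their smallest adjusted p in limma was 0.640, so none was called. Leaving out REST shRNA array 2 also removed the lowest Rest signal of the 6 arrays. The Rest difference was then -0.44, against -0.68 with all arrays. Over all 6 arrays, 2 of the 3 Rab7b probe sets had the sign opposite to that of its brightest. Without control array 1 the counts were 0 higher (0.962% of all genes) and 0 lower (0.55%). Leaving out control array 2 left 1 higher, Rab3c (1.21% of all genes), and 0 lower (0.912%). Leaving out control array 3 left 1 higher, Rab15 (1.63%), and 0 lower (1.18%). Without REST shRNA array 1 there were 2 higher, Rab3c and Rab20 (3.53%), and 3 lower, Rab27b, Rab30 and Rab40b (1.96%). Without REST shRNA array 3 there were 1 higher, Rab3c (1.51%), and 0 lower (1.31%). The part of the low Rest signal and the low astrocyte markers of REST shRNA array 2 in these values was not tested.

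**Figure D4:**
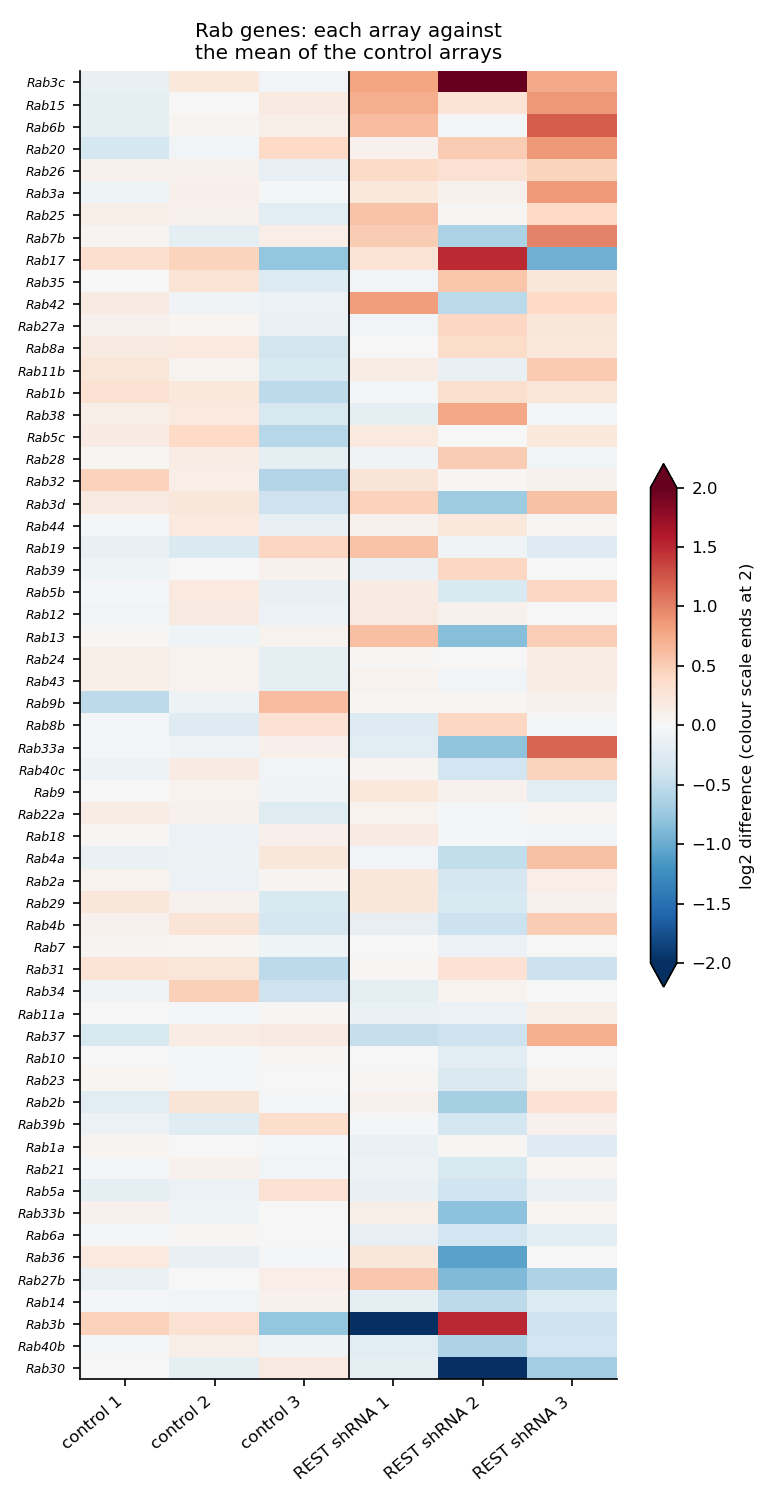
Log2 signal of each Rab gene (rows, ordered by difference) in each of the 6 arrays (columns), minus the mean of the 3 control arrays, with red for higher and blue for lower values. REST shRNA array 2 holds the lowest value of 25 of the 59 genes, and Rab3b ranges from dark blue in array 1 to dark red in array 2 of the same group.

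Rab genes that share a number encode close relatives. Their difference within an array is unchanged by a shift of all log2 values of that array, as in centring on the median. Quantile normalization can change it. This comparison was chosen after the values were seen and is a description. Outside Rab3 there were 15 such gene pairs, and in 2 of them the groups did not overlap. For single genes the groups did not overlap in 4.91% of all genes on the higher side and 2.65% on the lower side. No such share was computed for gene pairs, so the count of 2 cannot be told from a background level. Rab6b minus Rab6a was -2.77, -2.59 and -2.49 in the control arrays and -1.83, -2.25 and -1.18 in the REST shRNA arrays. The 2 Rab6 signals thus lay closer together in each REST shRNA array than in any control array, by 0.86 on average. Rab40c minus Rab40b was 1.93 to 2.05 in the control arrays and 2.23 to 2.82 in the REST shRNA arrays. In the other 13 pairs the groups overlapped, among them Rab5b minus Rab5a, Rab8b minus Rab8a and Rab11b minus Rab11a. Within Rab3, 1 of 6 pairs did not overlap, Rab3c minus Rab3b.

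**Figure D5:**
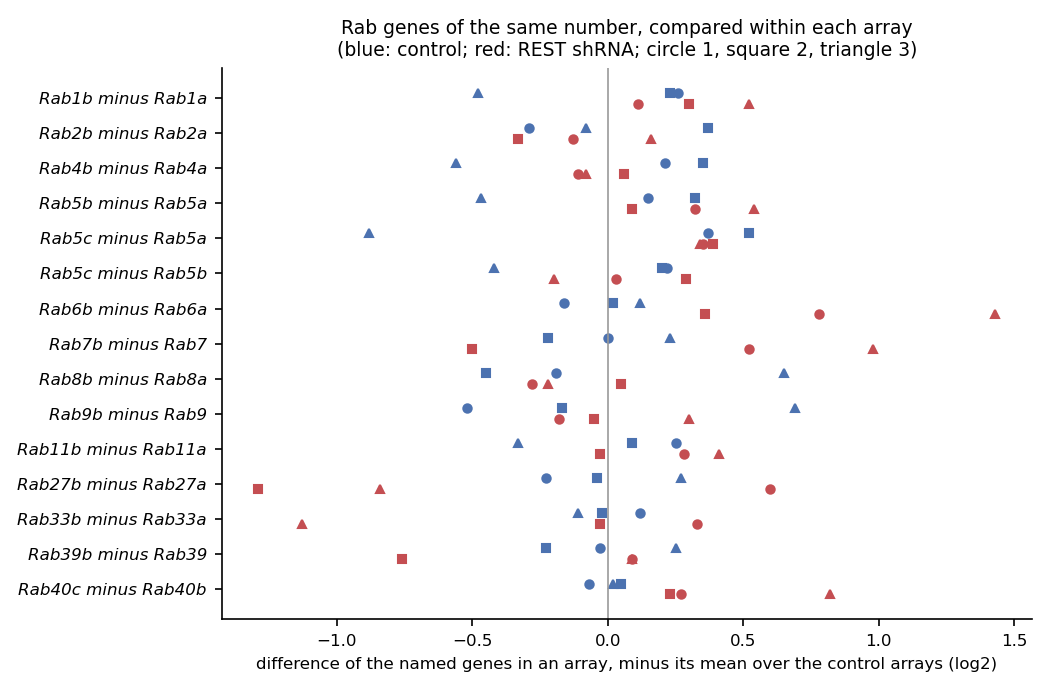
Difference in log2 signal between Rab genes of the same number outside Rab3, taken within each array and set to 0 at the mean of the control arrays; blue symbols are control and red symbols REST shRNA arrays. For Rab6b minus Rab6a and for Rab40c minus Rab40b the 3 REST shRNA arrays lie to the right of the 3 control arrays, and in the other 13 pairs the groups overlap.

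Partner proteins of the Rabs were taken from 5 lists by role, of which 128 of 136 entries were measured. None was called, with adjusted p-values in limma of 1.00 for each partner named here. Of the effectors of Rab3 and Rab27, listed together with relatives such as Rims3, 11 of 13 were positive. Of all 18194 genes 10411 were. The median of the 13 was 0.25. Sytl1, Mlph and Exph5, which are among the 11, were not above the bacterial controls, so their differences could not be read. At an unadjusted p under 0.05, 1 of the 13 read higher (7.69%, against 1.78% of all genes). Rph3a encodes rabphilin, which binds Rab3 on synaptic vesicles and is a known REST target. It read 5.49, 5.56 and 5.10 in the control arrays and 6.40, 7.35 and 6.59 in the REST shRNA arrays. All REST shRNA arrays lay above all controls, and the difference was 1.40 ± 0.28 (SE), or 2.63-fold. Without any single array the difference was between 1.11 and 1.59.

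The Rims genes had positive differences that did not reach an unadjusted p of 0.05. Rims3, a relative of the active zone scaffolds that bind Rab3, differed by 0.82 ± 0.35 (SE), Rims2, such a scaffold, by 0.36 ± 0.20 with the opposite sign in 2 of 5 probe sets, and Rims1, its relative, by 0.27 ± 0.38. Blocked on replicate number, the unadjusted p of Rims3 was 0.00745. Rph3al, a rabphilin-like effector of secretion in endocrine cells, differed by -0.47 ± 0.21 close to the bacterial controls, with the opposite sign in 1 of 2 probe sets.

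Of 6 measured genes of prenylation and recycling, 1 read lower at an unadjusted p under 0.05 (16.7%, against 1.07% of all genes). Chm encodes an escort protein that presents new Rab proteins to the prenyl transferase. It read 5.44, 5.32 and 5.69 in the control arrays and 4.89, 4.82 and 5.08 in the REST shRNA arrays. The groups did not overlap, and the differences by pair were -0.55, -0.50 and -0.62. The mean difference was -0.55 ± 0.17 (SE), with an unadjusted limma p of 0.0129. With the most variable probe set the difference was -0.46, with an unadjusted limma p of 0.0808. Chml, the related escort protein, differed by the same -0.55 but with a wider error of 0.30 and with REST shRNA array 2 above its control. Gdi2, which retrieves Rabs from membranes, was level at 0.06 ± 0.15.

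The exchange factors and GAPs were near the background. Of 35 GEF genes 14 were positive, with a median of -0.07 and none at an unadjusted p under 0.05. The smallest p belonged to Dennd4c, at -0.44 ± 0.21 (SE). Madd, which activates Rab3, differed by 0.37 ± 0.21, with the opposite sign in 1 of 2 probe sets. Of 36 GAP genes 23 were positive, with a median of 0.04. Tbc1d9, a member of the TBC family to which most Rab GAPs belong, was the 1 that read higher at an unadjusted p under 0.05 (2.78%, against 1.78% of all genes), by 0.55 ± 0.20. Its unadjusted limma p was 0.0332 when blocked on replicate number. It was 0.0697 with each array centred on its median and 0.0664 after quantile normalization. Rab3gap1 and Rab3gap2, the subunits of the Rab3 GAP complex, differed by 0.14 ± 0.14 and 0.66 ± 0.34, the latter with REST shRNA array 2 at 8.11 against 6.58 to 6.88 in the controls. Of 38 effectors of other Rabs 15 were positive, with a median of -0.04. Ocrl, a phosphatase that binds several Rabs on endosomes and the Golgi, was the 1 that read lower at an unadjusted p under 0.05 (2.63%, against 1.07% of all genes), with a difference of -0.59 ± 0.23. Its unadjusted limma p was 0.0327 when blocked on replicate number. It was 0.117 with the most variable probe set and 0.11 when all probe sets of a gene were averaged.

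Beside the higher signals of Rab3c, Rab15, Rab26 and Rph3a stand the neuronal and progenitor marker values given above. The mean difference per neuronal marker was 1.12, 0.63 and 0.92 in pairs 1, 2 and 3. Their part in these differences was not tested.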

How the data were processed

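RNA of 6 samples, 3 with control shRNA and 3 with REST shRNA, was measured on 1-colour Affymetrix arrays. The deposited values are log2 signals, one for each probe set, a scale inferred from their range of 1.00 to 14.2. How the authors corrected background, summarised probes and normalized is not stated. Across arrays, the sorted values deviated from their mean by 0.0224 on average, and the values were used as deposited. No pair of arrays was identical (Pearson correlations 0.955 to 0.993).

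Gene names came from the platform annotation (34958 with 1 gene, 932 with several and left out, 9211 unnamed here), with symbols checked by gene number against RefSeq GRCm38.p6. Each of 18194 genes was represented by its brightest probe set (mean of the 6 arrays), with no filter on dim genes. 13832 genes had a mean above the highest of the 27 Bacillus control probe sets.

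Differences were fitted across all genes with limma 3.58.1 (lmFit, eBayes, R 4.3.3), group as sole term, two-sided, with 4 residual and 2.7 prior degrees of freedom and Benjamini-Hochberg adjustment over all genes. In 20 simulated tables of 18194 genes for this comparison, the fit recovered 23.7% of genes changed 2-fold and 88.2% of genes changed 4-fold at the adjusted threshold. The simulated noise was normal and independent between genes. The real arrays may vary jointly over many genes, so these rates hold for the simulated setting only. Members, role groups and lists were chosen with earlier results of these data known. Named genes were Rest, all Rab3 genes, Rabs with an unadjusted p under 0.05 or non-overlapping groups, the 5 largest differences per direction outside Rab3, the 5 brightest, and list members by smallest p; further Rabs and partners of interest for their role were named after their values were seen.

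Replicate numbers come from the titles. Deviations from group means correlated at 0.108, 0.365 and 0.504 for numbers 1, 2 and 3, all over 0.1. On that basis the pair differences and the blocked fit match arrays by number, while the main fit has no pair term. This measure did not set number 1 apart, since control array 1 reached 0.268 with REST shRNA array 2. The titles give numbers and do not say that equal numbers belong together, so the pairs are an assumption. Blocked values stand beside results they change. The alternatives were this block, 2 scalings, a filter on dim genes, 3 choices of probe set, another variance model and leaving out each of 6 arrays.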

Additional observations from a re-analysis of the deposited data

How the results depend on the processing

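Under all 14 alternatives no Rab gene and no other gene passed the adjusted threshold in limma; the smallest adjusted p of a Rab gene was 0.640, without REST shRNA array 2. The replicate block left the Rab counts at 3 and 1, with other members in them as given above. The count of Rab genes lower at an unadjusted p under 0.05 was 1, and 3 with each array centred on its median. It was 0 with dim genes left out, with the most variable probe set and with trended robust variance. Leaving out 1 array gave 0 to 8 Rab genes higher and 0 to 3 lower, and 175 to 768 genes higher and 100 to 357 lower over all genes, where all 6 arrays gave 323 and 195. Directions turned for Rab27b with the most variable probe set (0.10), and with 1 array left out for Rab3b (-1.32 to 0.55), Rab3d (-0.13 to 0.53) and Rab36 (-0.54 to 0.11). The cause was not tested. Rest kept its direction under every alternative, at -0.91 to -0.44. Centring moved the median of all genes from 0.04 to -0.02. With 3 arrays per group, most 2-fold differences in the simulated tables were below what the fit could call.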
